A study of Mus musculus with 10 samples.

Results

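The transcriptome of wild-type mouse oocytes at the germinal vesicle stage was ranked by array signal, using the 5 arrays whose titles name wild-type oocytes out of the 10 arrays of the series. The 5 linear signals of each probe set were averaged and array controls were left out. For every gene with a single symbol the brightest of its probe sets by mean was kept, which gave 18193 ranked genes. The other 5 arrays, of oocytes depleted of the insulator-binding protein CTCF, entered no ranking. The labels describe the group only as wild-type oocytes in title and source, and the germinal vesicle stage stands in the description field. Its strain and age, the number of oocytes per sample and whether samples came from separate animals are not stated in those labels, so the spread between arrays may be partly technical. That description also names CTCF depletion on every sample, the wild-type ones included, while titles and sources separate the groups. The Ctcf transcript followed the titles, because its pair of probe sets read at least 699.7 and 897.9 on every wild-type array and at most 61.1 and 95.8 on any array titled as depleted.

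The germinal vesicle is the large nucleus of an oocyte held in prophase of the first meiotic division. During growth the oocyte fills with mRNA and protein that it stores for the completion of meiosis and for the first divisions of the embryo, since transcription falls silent before the meiotic divisions resume. It also builds its own coat, the zona pellucida, and sends growth factors to the granulosa cells around it, which remain coupled to it through gap junctions.

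Upstream sequences of 4 oocyte genes with high signal and 1 gene active in nearly all cells are shown because they differ in E-boxes and base composition. Each sequence is the 250 bases before the annotated start of transcription, from RefSeq on build GRCm38.p6, read 5′ to 3′ on the gene's strand. Capitals mark each E-box, CANNTG, a short motif bound by basic helix-loop-helix factors such as FIGLA, which is known to act on zona pellucida genes. Zp3 is on the plus strand at chr5:135979855-135980104, Oosp1 on the minus strand at chr19:11691052-11691301, Ooep on the minus strand at chr9:78378589-78378838, Btg4 on the plus strand at chr9:51115751-51116000 and Eef1a1 on the minus strand at chr9:78481725-78481974.
Zp3: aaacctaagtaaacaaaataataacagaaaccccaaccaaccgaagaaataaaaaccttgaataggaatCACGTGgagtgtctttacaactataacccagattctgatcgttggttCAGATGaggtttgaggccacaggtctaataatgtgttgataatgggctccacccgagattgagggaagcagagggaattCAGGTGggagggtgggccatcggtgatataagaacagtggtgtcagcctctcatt
Oosp1: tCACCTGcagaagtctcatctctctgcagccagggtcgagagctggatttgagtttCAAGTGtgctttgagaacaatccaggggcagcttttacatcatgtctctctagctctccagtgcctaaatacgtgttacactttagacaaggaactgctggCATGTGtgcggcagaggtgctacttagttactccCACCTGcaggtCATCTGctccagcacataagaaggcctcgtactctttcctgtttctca
Ooep: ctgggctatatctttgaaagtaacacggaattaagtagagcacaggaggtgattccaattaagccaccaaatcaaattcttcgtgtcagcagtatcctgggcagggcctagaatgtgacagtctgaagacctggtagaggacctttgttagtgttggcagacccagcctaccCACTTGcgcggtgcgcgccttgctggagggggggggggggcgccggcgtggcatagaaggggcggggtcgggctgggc
Btg4: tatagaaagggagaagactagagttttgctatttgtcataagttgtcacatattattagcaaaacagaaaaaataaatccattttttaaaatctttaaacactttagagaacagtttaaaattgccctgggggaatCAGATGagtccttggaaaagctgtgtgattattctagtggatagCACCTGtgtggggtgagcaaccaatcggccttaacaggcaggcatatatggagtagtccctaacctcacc
Eef1a1: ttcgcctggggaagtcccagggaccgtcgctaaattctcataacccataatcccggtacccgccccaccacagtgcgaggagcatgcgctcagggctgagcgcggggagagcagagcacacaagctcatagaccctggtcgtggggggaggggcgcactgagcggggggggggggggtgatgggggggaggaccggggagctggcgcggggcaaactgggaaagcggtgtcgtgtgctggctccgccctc

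The Zp3 stretch held 3 E-boxes, which begin 181, 134 and 55 bases before the start, and 5 CpG dinucleotides. Oosp1 held 5 E-boxes and 4 CpG, Ooep held 1 E-box and 11 CpG, Btg4 held 2 E-boxes and 1 CpG, and Eef1a1 held 0 E-boxes and 18 CpG. The GC content was 43.6% for Zp3, 49.2% for Oosp1, 57.2% for Ooep, 38% for Btg4 and 68% for Eef1a1. An upstream sequence was matched to 14368 of the ranked genes, with the first one listed taken for each. Among them the median CpG count was 13 and the median GC content 57.6%. Genes of the subcortical maternal complex and the Nlrp family lay below this, with a median of 2 CpG and 42.8% GC over 14 sequences. Oocyte-specific multigene families had a median of 2 CpG and 49.2% GC over 21 sequences, and egg coat and paracrine factors 4 CpG and 50% GC over 9. An E-box stood in 13 of 14, 19 of 21 and 7 of 9 of these sequences, against 60.8% of all matched genes and 66.0% of the 27025 genes in the sequence table. Such values were not particular to oocyte genes. Organ-restricted genes of other tissues held an E-box in 17 of 21 sequences with a median of 2 CpG, and blood, immune and endothelial genes in 11 of 13 with 4 CpG. Nor were they shared by all oocyte lists, since oocyte transcription factors held one in 9 of 14 with 61.4% GC, and maternal effect genes in 12 of 21 with 15 CpG. Of the 80 matched genes among the brightest 100, 58.8% held an E-box. The GC box GGGCGG, searched on both strands, was found in 50% of those 80, in 63.4% of the genes ranked 101 to 1000, and in 29.3% of the genes not above the control level on any array. The median CpG count of these classes was 14.5, 18 and 4. A match is a string of letters and was not tested as a binding site, and genes of 1 family may share upstream sequence and are not independent.

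Throughout, a run of 5 signals gives wild-type replicates 1 to 5 in that order, and means carry the SD over these 5 arrays. The values are MAS5 signals on a linear scale, which order probe sets by brightness and not genes by number of mRNA molecules, because probe sets bind their targets with different strength. The control level is, on each array, the highest signal among 27 probe sets for Bacillus transcripts, which mouse RNA lacks, and it ranged from 6.15 to 10.2.

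Arrays were alike over most genes. Across the 11292 genes above the control level on every array, Pearson's r between log2 signals of array pairs ran from 0.991 to 0.993, a description over genes that are not independent replicates. A pair of arrays stood apart in limited ways. Replicate 2 carried more signal for 13 genes, 4 of them on the list of granulosa and cumulus cell genes. Replicate 5 was brighter at the top of the range: it had the highest signal for 91 of the 100 brightest genes, with a median of 1.07 times the mean, whereas for the 5085 genes with mean signal from 100 to 1000 it was highest for 15.8%. The added Cre control transcript was also brightest there, at 9222 against 7676 to 8079 on the other arrays. Quantile normalization gives every array the same set of values and so removes such a difference by construction. After it, replicate 5 was highest for 13 of the 100 brightest genes of the normalized data.

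Each of 5 oocyte markers lay far above the control level. They were chosen with earlier results of these data known, and 62.1% of all ranked genes were above that level on every array. Their signals are therefore a description and no independent check of the samples' identity. Gdf9, a growth factor through which the oocyte directs granulosa cells, read 8774, 8738, 8957, 8579.7 and 10019, a mean of 9013 ± 578 and the highest of all genes. Zp3, the zona glycoprotein that sperm first bind in the classical account, read 8116, 7609, 7651, 7275 and 8473 and ranked 11. Zp2, a zona glycoprotein cleaved after fertilization, read 6079.7, 6218, 6683, 6074 and 7069 and ranked 42. Nlrp14, an oocyte member of the NLR family, read 5696, 5844, 5803, 5801 and 6379 and ranked 70. Dazl, a germ cell RNA-binding protein, read 2766, 2717, 2841, 2805 and 2701 and ranked 536. All but Dazl read highest on replicate 5, and Dazl read lowest there.

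Between 12193 and 13736 genes per array, 67.0% to 75.5%, lay above that array's control level. The number above it on all 5 arrays was 11292, or 62.1% (95% exact binomial interval 61.4% to 62.8%, counting error only, since genes are not independent), and 3364 genes, 18.5%, were above it on 0 arrays. A mean signal of at least 100 was reached by 7055 genes, of at least 1000 by 1970 and of at least 5000 by 143, with a median of 35.9 over all genes. The top of the ranking was flat in signal. The first gene was 1.66 times as bright as gene 100 and 4.95 times as bright as gene 1000. A probe set for the added Cre control averaged 8158, as bright as genes of the first ranks. How far signal still rises with mRNA amount at this brightness was not tested, so the flat top need not hold for mRNA amounts. Per array the 10 brightest genes held 1.24 ± 0.05% of the summed signal of all genes, the 100 brightest 9.53 ± 0.29% and the 1000 brightest 48.8 ± 0.64% (SD, n = 5).

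**Figure D1:**
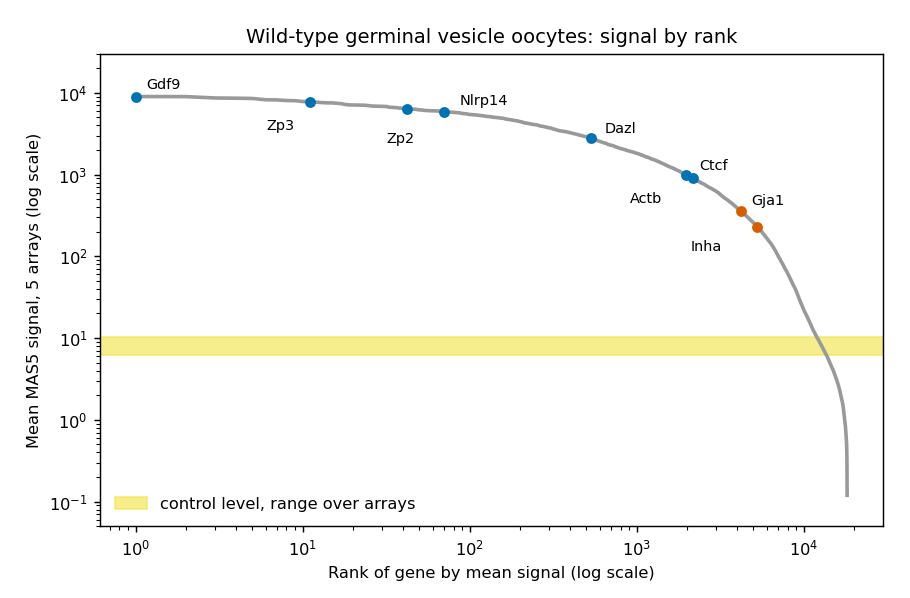
Mean MAS5 signal of each of the 18193 ranked genes (vertical axis, log scale) against its rank (horizontal axis, log scale) in the 5 wild-type arrays, with 9 genes marked and the control level of the arrays as a band. The curve is nearly flat from Gdf9 at 9013 to rank 100 at 5441 and then drops through the band, under which 3364 genes lie on every array.

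The 30 brightest genes included oocyte proteins of the egg coat and the maternal store, next to enzymes and proteins common to many cells. Obox2, an oocyte homeobox protein, read 8810.1, 8676, 9121, 8656 and 9661. Bcl2l10, a BCL2 family protein abundant in eggs, read 8693, 8513, 8557, 8331 and 9146. These followed Gdf9 in the ranking, and all 3 overlapped in their values. Ldhb, the lactate dehydrogenase subunit typical of tissues that burn lactate, read 8312, 8456, 8345, 8059 and 9479, and its 4 probe sets had means from 7415 to 8530. Ooep, a subunit of the subcortical maternal complex, read 8361, 7874, 8122, 7893 and 8707. Hmgcs1, which makes HMG-CoA for cholesterol synthesis, had a mean of 8013 ± 336, and Laptm4b, a lysosomal membrane protein, 8051 ± 444. Replicate 5 gave the highest value for each of these 6 genes.

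From the list for meiotic arrest and resumption, described further on, Pttg1 and Bub1b were among the 30. Pttg1, securin, which restrains the protease that separates chromosomes, read 7267, 7117, 7399.6, 7834 and 8092. Bub1b, BUBR1 of the spindle checkpoint, read 7162, 7037, 6906, 6744 and 7758. Tuba4a, an alpha tubulin, had a mean of 7694 ± 391, and Spin1, spindlin, a reader of histone methylation first found on the egg's spindle, 7061 ± 400.1. Zar1, which holds maternal mRNA, averaged 7374 ± 211, Btg4, an adaptor that recruits the deadenylase for maternal mRNA decay, 7098 ± 228, and Pabpn1, the nuclear poly(A)-binding protein, 6868 ± 332. Hsp90aa1, a cytosolic chaperone, averaged 6846 ± 359.8 and Kpna2, an importin alpha, 6836 ± 221. Other members of the 30 were Setd4, C86187, Tsc22d1, the nucleosome-binding protein Hmgn1, the DNA damage response protein Trp53bp1, the ribosome biogenesis factor Bms1 and Tbc1d14, with means from 6890.5 to 8597.

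The exact order within the 30 was not resolved by 5 arrays. None of the 29 neighbouring pairs differed by more than the larger SD of the pair (0 of 29), and 1 of 29 kept the same order on all 5 arrays. A gene's rank moved over a median of 7 places between arrays and at most 17. Membership was steadier: each of the 30 was among the 100 brightest on every array, 84 of the 100 were, and 7 genes were among the 10 brightest on every array. The signal fell smoothly past the limits used here, from 6836 at rank 30 to 6803 at rank 31 and from 5441 at rank 100 to 5432 at rank 101.

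**Figure D2:**
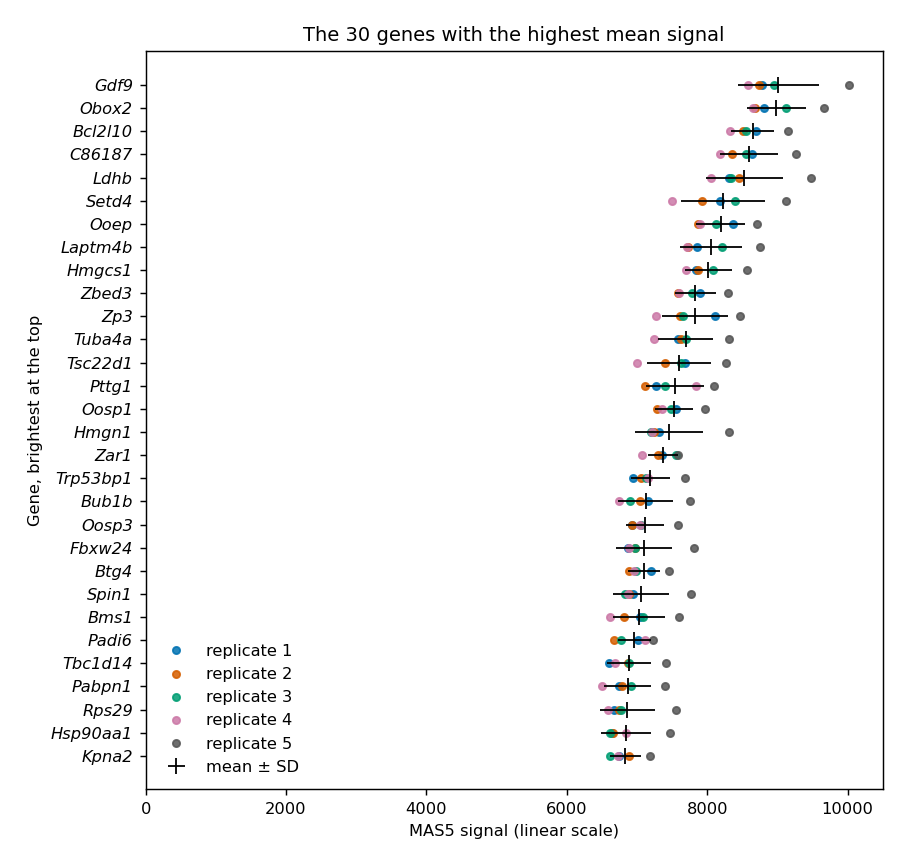
Signal of the 30 genes with the highest mean (vertical axis, brightest at the top) on each of the 5 wild-type arrays (points) with mean and SD (tick and bar), on a linear axis that starts at 0. Values of neighbouring genes overlap throughout, and replicate 5 is the rightmost point for nearly every gene, for example at 10019 for Gdf9.

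The rule of taking the brightest probe set per gene weighed on the top of the ranking. Of the 30 genes, 11 had 1 probe set and 19 had several, and in 9 of the 19 the next probe set was at least 2-fold dimmer. Such gaps were not particular to the top, since 5740 of the 9010 ranked genes with several probe sets had them. The median ratio of the brightest to the next probe set was 1.49 in the 30 and 2.80 over all genes. Tbc1d14 had a mean of 6890.5 on its brightest probe set and 131 on the next. Trp53bp1 had 7192 and 2170.4, and Setd4 ranged from 8224 down to 234. Probe sets whose IDs mark probes shared with other transcripts made up 34% of the 100 brightest, against 9.10% of all ranked genes. When the median over a gene's probe sets was used, 57 of the 100 remained, and when shared probe sets were left out, 71 did.

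Gene lists were then read against the whole ranking, in which 62.1% of genes were above the control level on all arrays, 0.550% belong to the 100 brightest and 5.50% to the 1000 brightest by construction. The lists were written with earlier results of these data known, so their counts are a description.

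Apart from the list of 5 markers, egg coat and paracrine factors had the highest median of the 21 lists. The markers Gdf9, Zp3 and Zp2 are also members of this list. All 14 ranked members were above the control level on 5 of 5 arrays, 6 were among the 100 brightest and 9 among the 1000 brightest, with a median mean signal of 4409. Oosp1, an oocyte-secreted protein, read 7561, 7281, 7478, 7353 and 7976, and Oosp3 of the same family averaged 7108 ± 271. Zp1, which cross-links the filaments of the zona, read 6117, 5724, 5857, 6036 and 5677, so the zona genes fell in the order Zp3, Zp2, Zp1 by mean, with Zp2 and Zp1 overlapping between arrays. Bmp15, the partner of GDF9 in signalling to granulosa cells, was dimmer at 1584 ± 79.5, and Kit, the receptor for the granulosa factor kit ligand, averaged 1759 ± 106. Cd9, the tetraspanin needed for sperm fusion, had the lowest mean of the list, 277.

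The subcortical maternal complex is a protein assembly under the egg surface that the embryo needs for its first divisions, and the list combined it with the oocyte members of the Nlrp family. All 15 ranked members were above the control level on every array, 6 were among the 100 brightest and 10 among the 1000 brightest, with a median of 4122. Besides Ooep, Zbed3 averaged 7833 ± 295, Padi6, a peptidylarginine deiminase of the egg's cytoplasmic lattices, 6959 ± 236, Nlrp5, also called MATER, 6634 ± 389.8, and Tle6 5902 ± 273. Khdc3, a further subunit of the complex, was dimmer, at 687 ± 53.6. Subunits of 1 complex thus spanned signals from 687 to 8192, a range that on these arrays cannot be split into mRNA amount and probe strength.

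Oocyte-specific multigene families, which lie in clusters of similar genes, were the third of these 21 lists by median, 3387. Of 24 ranked members, 22 were above the control level on all arrays, 6 were among the 100 brightest and 18 among the 1000 brightest. Fbxw24, an F-box protein, averaged 7102 ± 398, Fbxw16 6045 ± 342 and Fbxw19 6042 ± 326, and Oas1e and Oas1c, oligoadenylate synthetase family members, averaged 6789.7 ± 337 and 5441 ± 150.0. The other probe set of Fbxw16 had a mean of only 95.5. Members of a family share much sequence, so their signals may include each other's. A further 15 listed genes were not found as a single symbol under the name listed. A probe set shared by Oog1 and related genes read 8412, between Ldhb and Setd4 in brightness.

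Transcription factors of the oocyte spanned the whole range. Of 17 ranked, 16 were above the control level on all arrays, 2 were among the 100 brightest and 7 among the 1000 brightest. After Obox2 came Obox5 at 6005 ± 233, Klf17 at 5432 ± 247, just outside the 100 brightest, and Nobox, needed for follicle growth, at 3525 ± 112. Sall4 and Lhx8 averaged 3363 ± 194 and 2912 ± 113, and Pou5f1, the pluripotency factor OCT4, 727 ± 72.8. Figla averaged 337 ± 27.6, and Sohlh1, which acts in early oocytes, read 16.3, 7.09, 19.7, 11.2 and 15.4, close to the control level. Obox6 was above it on 0 arrays.

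**Figure D3:**
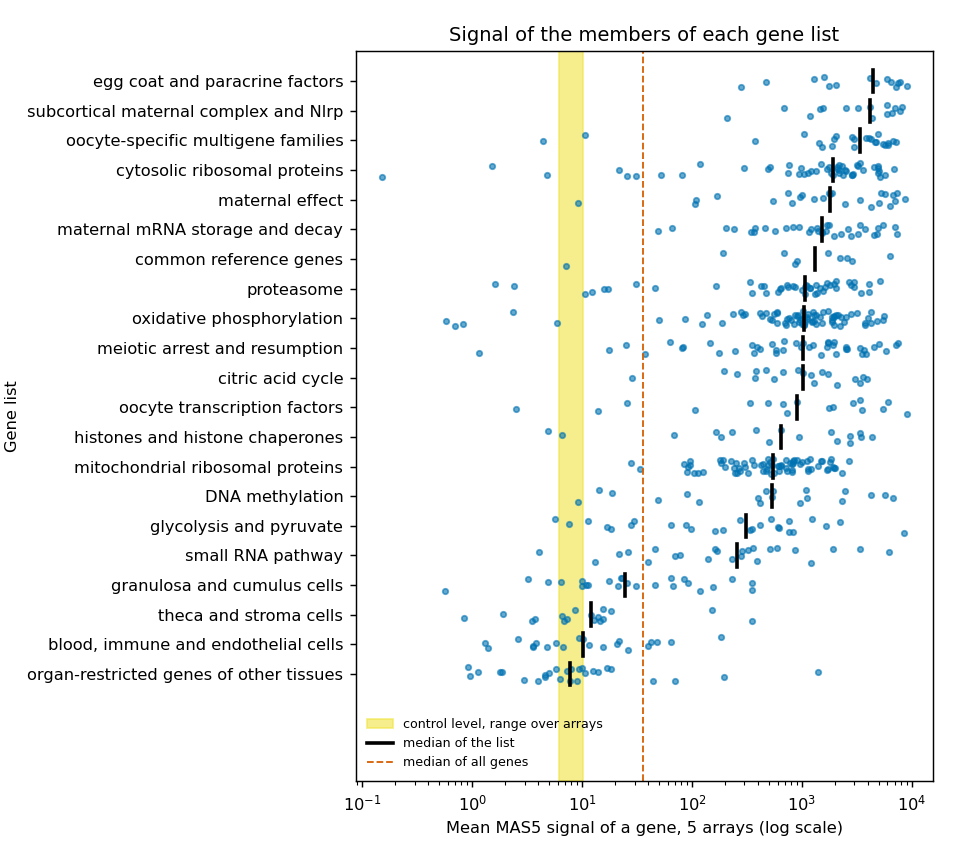
Mean MAS5 signal over 5 wild-type arrays (horizontal axis, log scale) of each ranked member (points) of 21 gene lists, with the median of each list as a black bar, the median of all genes (35.9) as a dashed line and the control level of the arrays as a band. Egg coat genes have the highest median, 4409, and the 4 lists of other cell types and tissues have medians from 7.75 to 24.5.

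On the list of maternal effect genes, linked to maternal products used by the embryo, 24 of 25 ranked members were above the control level on all arrays. Of the 25, 6 were among the 100 brightest and 12 among the 1000 brightest. Dppa3, which guards maternal chromatin against demethylation and is also called Stella, averaged 6669 ± 272. Tcl1 averaged 6388 ± 223, and Trim28, a corepressor that maintains imprints, 4275 ± 113. Zfp57, its DNA-binding partner at imprinted regions, read 2498, 2466, 2649.7, 2629.6 and 2120.2, with the lowest value on replicate 5. Cdx2, a factor of the trophectoderm of later embryos, had the lowest mean of the list, 9.16.

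The list for meiotic arrest and resumption had 43 ranked members, of which 42 were above the control level on all arrays, 3 were among the 100 brightest and 15 among the 1000 brightest, with a median of 1018. Beyond Pttg1 and Bub1b the brightest were Incenp, of the chromosomal passenger complex, at 5798 ± 361, and Wee2, the oocyte kinase that holds CDK1 inactive, at 4996 ± 207. In both the next probe set was dimmer, with a mean of 741 for Incenp and 1298 for Wee2. Birc5, survivin, the passenger partner of Incenp, followed at 4509 ± 208, and Mos, which starts the MAP kinase arm of egg arrest, at 3844 ± 80.8. Cdk1 itself averaged 1489 ± 43.5 and Ccnb2, a cyclin B, 881 ± 80.8. Gpr3, the receptor that keeps cyclic AMP high in the arrested oocyte, averaged 679 ± 18.5. Pde3a, the oocyte's cyclic AMP phosphodiesterase, read only 40, 34.5, 33, 45.8 and 35.2, and the cohesin subunit Rec8 was above the control level on 0 arrays at 1.16 ± 0.518. Both proteins are known to act in mouse oocytes, and a dim probe set does not show that a transcript is absent.

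Storage and decay of maternal mRNA were covered by 34 ranked genes, all above the control level on every array, 13 of them among the 1000 brightest. Ybx3, a cold-shock domain protein, averaged 5415 ± 338. Cnot6l and Cnot7, catalytic subunits of the CCR4-NOT deadenylase with which Btg4 acts, averaged 4935 ± 193 and 4549 ± 143, and Lsm14b, a protein of stored RNA particles, 4777 ± 371. The lowest mean, 49.2, was that of Zfp36l2.

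Small RNA genes were dimmer, with a median of 257 over 24 ranked members, 23 of them above the control level on all arrays. Gtsf1, a piRNA pathway zinc finger protein, stood out at 6178 ± 296. Dicer1, which cuts siRNA and miRNA precursors, averaged 3368 ± 129.9, Drosha, which starts miRNA processing, 857 ± 75.8, and Tdrd12 and Asz1, of the piRNA pathway, 1912 ± 77.8 and 1208 ± 68.7. Piwil4 was above the control level on 0 arrays. Among 19 genes of DNA methylation, Dnmt1, the maintenance methyltransferase, read 5574, 5668, 6042, 5416 and 5977, and Dnmt3a, the de novo enzyme that sets maternal imprints, read 1125, 967, 1050.1, 1236 and 1135. These are levels of different probe sets and give no ratio of the transcripts.

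Of 17 histone and histone chaperone genes, 15 were above the control level on all arrays and 7 were among the 1000 brightest. Npm1, nucleophosmin, averaged 4335 ± 233, Asf1a, a histone H3 and H4 chaperone, 3459 ± 139, Atrx, a chromatin remodeller, 3405 ± 132, and Nap1l4 and Anp32b 2731 ± 125 and 2712 ± 119. H3f3b, which codes for histone H3.3, averaged 4.91 ± 3.54 on its own probe set, whereas a probe set shared by H3f3a, H3f3b and related genes read 6387. A single-symbol ranking can therefore place a transcript at the bottom while its shared probe set is bright.

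Genes of energy metabolism also differed widely in level. In glycolysis and pyruvate use, 23 of 26 ranked genes were above the control level on all arrays and 2 were among the 1000 brightest, Ldhb and Pgk1, phosphoglycerate kinase, at 2197 ± 146. Ldha, the other lactate dehydrogenase subunit, read 73, 170.5, 70.7, 48.3 and 78.2, and was highest on replicate 2. Pkm, pyruvate kinase, averaged 1657 ± 35.7, Aldoa, aldolase, 1230.0 ± 49.3, and Pdha1 and Pdhb, of pyruvate dehydrogenase, 838 ± 35.7 and 756 ± 23.8. All 19 ranked citric acid cycle genes were above the control level on every array, with a median of 1015, led by Cs, citrate synthase, at 3883 ± 116, Fh1, fumarase, at 3612 ± 136 and Mdh2, mitochondrial malate dehydrogenase, at 3367 ± 128. Of 78 oxidative phosphorylation genes, 73 were above it on all arrays, led by Cox5a at 5556 ± 366 and Cox6a1 at 5424 ± 224. The 5 above it on 0 arrays were Cox7a1, Cox8b and Cox7b2, known as muscle or testis forms, and Ndufb4 and Cox7c.

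Genes of protein synthesis and breakdown spanned wide ranges. Of 49 cytosolic ribosomal protein genes, 46 were above the control level on all arrays and 26 were among the 1000 brightest, with a median of 1913. Rps29 averaged 6864 ± 390.0, Rpl35 5708 ± 309 and Rpl41 5159 ± 222. The summed signal of the list was 101780.0, 104112, 102112, 100850.0 and 105445, and it made up 1.51 ± 0.02% of the signal of all ranked genes. Rps16 was listed at 0.152 ± 0.064, above the control level on 0 arrays, but a probe set shared by Rps16 and its pseudogenes read 5732. Rpl3l, the muscle form of a ribosomal protein, was also above it on 0 arrays. All 73 mitochondrial ribosomal protein genes were above the control level on every array, with a median of 543, led by Mrpl22 at 2696 ± 71.3. Of 47 proteasome genes, 42 were, led by Psmc2, an ATPase of the regulatory particle, at 5147 ± 318. The pair above it on 0 arrays were Psmb8, a subunit of the immunoproteasome, and Psma8, a subunit of the testis.

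Of the common reference genes, 10 were ranked, with a median CV of 6.40%, near the 6.44% of all genes with a mean of at least 100. Eef1a1, translation elongation factor 1 alpha, read 6275, 6159, 6093, 6031 and 6767, and Ywhaz 2763, 2798, 2897, 2791 and 3042. Actb, beta actin, varied more and read 1084, 1061, 796, 858 and 707, a mean of 901 ± 165 and a CV of 18.4%, where the median CV of the 2654 genes with mean signal between 300 and 1000 was 6.35%. Actb was highest on replicate 1 and lowest on replicate 5. Gapdh had no probe set with a single symbol and was not ranked. The control probe sets for Actb gave 3-prime to 5-prime ratios from 5.97 to 7.81 across arrays and those for Gapdh from 7.73 to 9.75.

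Genes of the cells that surround or could accompany an oocyte were next examined. Of 24 ranked granulosa and cumulus cell genes, 14 were above the control level on all arrays, or 58.3%, near the 62.1% of all genes. The median was 24.5 against 35.9 over all genes, and 0 were among the 1000 brightest. The defining markers Foxl2, Fshr and Amh read 38.6, 42.3, 27.9, 15.1 and 31.5 for Foxl2, 24.4, 13.4, 31, 20.3 and 26.7 for Fshr and 8.10, 10.2, 13.7, 22.8 and 1.84 for Amh. Foxl2 was highest on replicate 2, Fshr was lowest there, and Amh was highest on replicate 4. Nr5a2, which in the ovary marks granulosa cells, averaged 349.8 ± 26.9 and Gata4 157 ± 9.76, with all arrays alike. Wt1 and Tnfaip6 were above the control level on 0 arrays. In a bulk sample, fewer cells of a type and less RNA per cell cannot be told apart.

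Of 17 theca and stroma genes, 5 were above the control level on all arrays and the median was 12.1, with Col1a1, Col3a1, Lum and Tagln above it on 0 arrays. The brightest was Myh11, smooth muscle myosin, at 354 ± 44.8. Of 21 blood, immune and endothelial genes, 9 were above it on all arrays, with a median of 10.3, and Ptprc, the leukocyte antigen CD45, Cd14, Cd79a and Emcn were above it on 0 arrays. C1qb, a complement chain, was the brightest at 183 ± 17.5. Of 27 genes known from other organs, 7 were above it on all arrays and the median was 7.75. The brightest was Vil1, villin of the gut brush border, which read 1379.9, 1439.6, 1417, 1397 and 1375. Mbp, a myelin protein, followed at 195 ± 25.5, then Prm2, a protamine, at 69.4 ± 6.03 and Myh7, a myosin of heart and slow muscle, at 44.4 ± 7.02, each above the median of all genes.

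The summed signal of the granulosa and cumulus list was 1418, 3175, 1428, 1446 and 1342. Replicate 2 was thus 2.25 times the mean of the other 4 arrays, whose own mean was 1409 ± 45.8 (SD, n = 4), against 1762 ± 791 with replicate 2 included. Of all 24 ranked members, 12 were highest on replicate 2, or 50%, where 19.3% of all ranked genes were. Of the 15 members with a mean signal of at least 20, 11 were highest there, or 73.3%, against 18.0% of all ranked genes at that level. That mean includes replicate 2, so a member can pass the limit through its signal on that array. The theca and stroma sum was 679.9, 592, 618, 704 and 647, lowest on replicate 2. The blood, immune and endothelial sum was 560.4, 588, 512, 486 and 486, highest on replicate 2 by a small margin.

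Single genes showed the same array apart. Gja1, connexin 43, the gap junction protein of granulosa cells, read 154, 1017, 209.8, 209 and 184. Inha, the inhibin alpha chain, read 157, 536, 148, 188 and 121, and Inhbb, an inhibin and activin beta chain, 53.4, 293, 27.3, 35.9 and 49.4. Replicate 2 was 4.85, 2.85 and 5.49 times the next highest array for these genes, and the other 4 arrays ranged from 154 to 209.8 for Gja1, 121 to 188 for Inha and 27.3 to 53.4 for Inhbb. Gja1 had 5 probe sets above the control level, and replicate 2 was the highest array on each, by 1.27 to 4.85 times the next. The dimmer probe set of Inhbb read 64.9 on replicate 2 and at most 32.4 elsewhere. Without replicate 2 the mean was 189 for Gja1, 154 for Inha and 41.5 for Inhbb.

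In all, 13 genes reached a signal of at least 100 on replicate 2 and were at least 2-fold above every other array, and 0 genes did so on each of the other 4 arrays. Besides the inhibin chains, Inhba included, and Gja1, they were Ctsl, cathepsin L, at 83.7, 395, 104, 87.6 and 115, Scd2, a fatty acid desaturase, at 64.4, 273, 56.6, 97 and 63.5, and Serpinb6a at 130.4, 359, 136, 129.9 and 134. The others, Tceal9, Ldha, Thbs4, Ubl5, Spsb1 and Tenm4, read between 119 and 298 on replicate 2. None of the 13 had a mean above 355, so the ranking of bright genes was not touched: without replicate 2, 99 of the 100 brightest genes remained. The part of attached granulosa or cumulus cells in the extra signal was not tested.

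**Figure D4:**
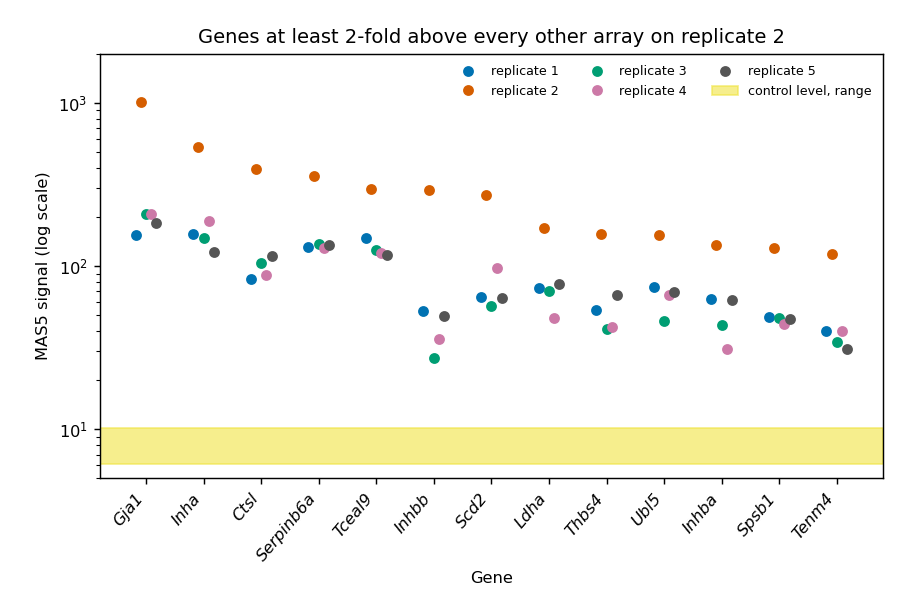
MAS5 signal (vertical axis, log scale) on each of the 5 wild-type arrays of the 13 genes that were at least 2-fold above every other array on replicate 2, with the control level as a band. Replicate 2 (orange) stands alone from Gja1 at 1017 to Tenm4 at 119, above the other 4 arrays for each gene.

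The spread between arrays depended on brightness. The CV, the SD as a percentage of the mean, had a median of 57.0% for genes with mean signal below 10, 13.9% from 30 to 100, 6.35% from 300 to 1000 and 4.39% at 3000 or more. Over the 7055 genes with a mean of at least 100 the median was 6.44%. A difference of a few percent between bright genes was therefore within the spread, and a signal under 10 had no useful order. The steadiest gene of mean at least 100 was Ndufb1, a subunit of respiratory complex I, which read 1043, 1052, 1049, 1046 and 1043. Tspan13, a tetraspanin, read 585, 595, 591, 593 and 590.4, and Rbm42, Tcof1 and Mus81 completed the 5 lowest, with CVs from 0.719% to 0.813%. These genes were picked for their small CV among 7055, so their steadiness has no replicate check.

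The least steady genes of that brightness included those raised on replicate 2 and a few that split the arrays another way. Bicc1, an RNA-binding protein known from maternal mRNA control, read 90.1, 105, 444, 482 and 87.9. Replicates 3 and 4 were thus at least 4.25 times the other 3 arrays. Its other probe sets split the same way, at 79.8, 98.7, 316, 305 and 90.5 for one and 37, 26.7, 145, 183 and 34.7 for the other. Sdad1 read 123, 96.8, 100.4, 205 and 206, high on replicates 4 and 5, but its other probe set, at 44.5 to 58.9, did not split. Zmym3 read 86.1, 95.3, 107, 114 and 205, and its next probe set, 72.3 to 99.99, did not single out replicate 5. Nme2, a nucleoside diphosphate kinase, read 238, 429.8, 238, 187 and 226. Pde7b, a cyclic AMP phosphodiesterase, read 48.1, 104, 128, 135 and 146, the only gene at least 2-fold below all other arrays on 1 array, with the other arrays at 100 or more. Its next probe set, near the control level at 10.7, 11.2, 14.5, 8.78 and 7.88, was not lowest on replicate 1. The labels give no batch, date or animal by which such splits could be examined.

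**Figure D5:**
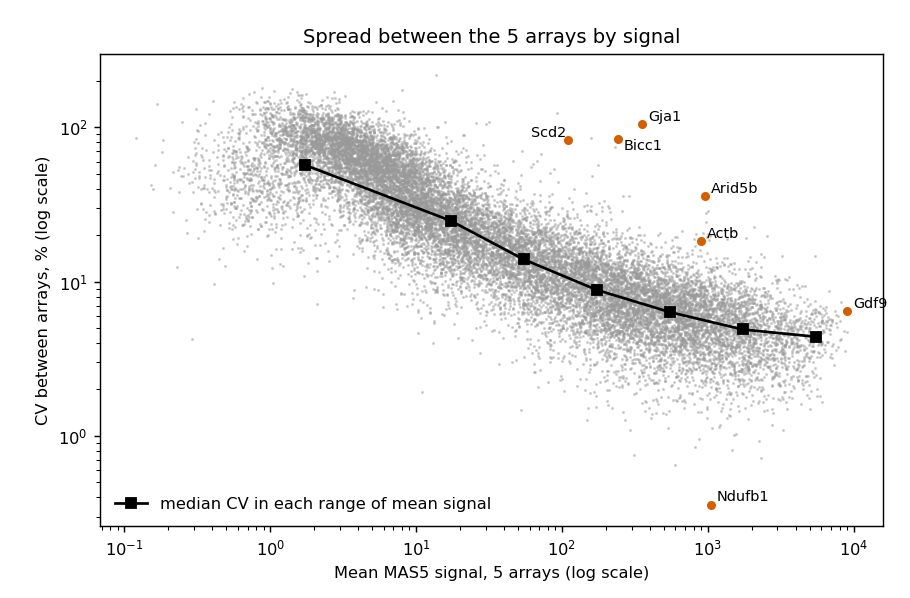
CV between the 5 wild-type arrays (vertical axis, percent, log scale) against mean MAS5 signal (horizontal axis, log scale) for each ranked gene (grey points), with the median CV of 7 ranges of mean signal (black squares, drawn at the geometric middle of each range). The median falls from 57.0% to 4.39% as signal rises, and of the genes in orange Gja1, Bicc1, Scd2, Arid5b, Actb and Gdf9 lie above the line and Ndufb1 below it.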

How the data were processed

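Total RNA of mouse oocytes (Picopure kit, small-sample biotin labelling, per the labels' protocols) was hybridised to single-colour arrays of 45101 probe sets, and the authors deposited an intensity for each probe set on each array on a linear scale. MAS5 is named as the method per the submitters' processing notes, with the version not given in the sources used here. The mean of each array's deposited values without the lowest and highest 2% was 150.001, so arrays had been scaled. MAS5 corrects with mismatch probes, and dim signals are noisy. The number of arrays limits the precision.

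Groups came from the titles. Of 45037 probe sets without the 64 controls, 34945 carried 1 symbol in the platform annotation, 932 carried several and 9160 carried none, and 18032 of the 18193 genes were found in RefSeq by gene ID, with 0 symbols differing. Signals were averaged and ranked with Python 3.11.15, numpy 2.4.6 and pandas 2.3.3, with intervals from scipy 1.17.1. The calculation of mean order, CV and genes high on 1 array was checked on gene values simulated from the means of these data. The choice of probe sets was not simulated, so this checks the calculation and not the ranking. With 1 group there is no comparison and no p-value.

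Members and the 22 gene lists (the 5 markers and the 21 in the plot of list members) were chosen with earlier results of these data known. Named genes were the 30 brightest, the markers, up to 6 brightest members of each list and those above the control level on 0 arrays (by name or count), the 10 largest and 5 smallest CVs at a mean of at least 100, Ctcf, Actb and Gapdh. Named after their values were seen were the genes far from the others on 1 array, the lowest members of lists and Bmp15, Kit, Figla, Sohlh1, Khdc3, Gpr3, Pde3a, Cdk1, Ccnb2, Pou5f1, Foxl2, Fshr, Amh, Arid5b, H3f3b and Dtx2. Alternatives were other control levels, scalings, means, probe set rules and CV limits, and leaving out each array.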

Additional observations from a re-analysis of the deposited data

Results flagged for a closer look

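For 40 of 202 named genes, or 19.8%, 1 array lay far from the others. Its gap to the nearest array took up more of the range of the 5 arrays than Dixon's 95% limit allows. Of these 40 genes, 18 fell on replicate 5, 17 on replicate 2, 4 on replicate 1, 1 on replicate 3 and 0 on replicate 4. Named genes were partly chosen for their brightness or spread, and some because they were at least 2-fold above all other arrays on replicate 2. The share and the counts therefore cannot be set against chance. The arrays also share these genes, so the counts are a description.

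On replicate 5 the far array was the highest for bright genes of many kinds: Gdf9 10019, Ldhb 9479, Hmgn1 8315, Trp53bp1 7679, Oosp3 7581, Fbxw24 7809.6, Spin1 7773, Rps29 7550.1, Hsp90aa1 7470.0, Dtx2 6655, Fbxw16 6651, Nlrp14 6379, Rps2 5175, Wee2 5357 and Cs 4089.5. It was also highest for Zmym3 205 and Tnfaip6 2.01, and lowest for C1qb 152. The summed signals of 3 lists were far highest there, 63997 for egg coat and paracrine factors, 78961 for meiotic arrest and resumption and 85859.6 for oocyte-specific multigene families. The share of summed signal in the array's own 100 brightest genes, 10.03%, and in its 1000 brightest, 49.9%, and the Cre control at 9222, were far highest on replicate 5 too. The added Cre control thus moved together with the bright genes. Dimmer added controls were mostly highest on replicate 5 too, for example a bioB probe set at 272 against 192 to 208 on the other arrays. Exceptions were a BioDn probe set, at 1377 on replicate 1 and 1343 on replicate 5, and a bioC probe set, at 206 on replicate 2 and 205 on replicate 5. The other probe sets for BioD and BioC were highest on replicate 5. Genes with mean signal from 100 to 1000 did not follow these controls, as 15.8% of them were highest on replicate 5. The part of the controls' change in gene signals was not tested.

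On replicate 2 the far array was the highest in every case. The genes at 100 or more were Gja1 1017, Nme2 429.8, Inha 536, Serpinb6a 359, Tceal9 298, Ctsl 395, Scd2 273, Inhbb 293, Ldha 170.5, Ubl5 155, Thbs4 157, Spsb1 129 and Tenm4 119. The dimmer ones were Csf1r 34.3, Ptprc 5.85, Tnp2 2.50 and Cox7c 2.21, of which only Csf1r lay above the control level there. The summed granulosa and cumulus signal, 3175, was far above the next array, 1446. On replicate 1 the highest arrays far from the others were Kdr 54.8, Psmb8 6.19, Rpl3l 4.70 and Cryaa 1.60, and on replicate 3 Lum 5.69. All of these but Kdr were below the control level.

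Signals outside the ranking were also high. The repeat control probe sets averaged 6462 for MURINE B2, 2559 for MURINE b1 and 138 for MUR b2, against a control level of at most 10.2. Of the probe sets with no symbol, 1345 of 9160 were above the control level on all 5 arrays, and 10 reached the signal of the gene at rank 100. Of those with several symbols, 548 of 932 were above it, and 22 reached that signal.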

How the results depend on the processing

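The number of genes above the control level on all arrays, 11292, ranged from 10247 to 12790 under 6 other definitions. With 1 array left out it ranged from 11342 to 11570. A gene then had to pass only on the remaining arrays, an easier rule under which the count tends to rise. The 100 brightest genes held 9.52% of the summed signal of mean values, 13.0% with the median over a gene's probe sets and 10.3% without shared probe sets, and 9.39% to 9.58% with 1 array left out. Of these 100 genes, 57 remained with the median over probe sets, 71 without shared probe sets, 99 after quantile normalization and 97 to 99 with 1 array left out. The median CV at mean signals of at least 100 was 6.44%, 7.84% after median centring, 7.10% and 5.86% at limits of 50 and 200, and 5.88% to 6.41% with 1 array left out. Median centring raised the median CV of the 100 brightest from 4.82% to 7.37%, and quantile normalization lowered it to 2.45%. The causes were not tested. With the median of the arrays in place of the mean, 12 of the 202 named genes moved by over 1.5 times, Bicc1 from 242 to 105, Gja1, Ctsl, Inhbb, Scd2 and 7 genes above the control level on 0 arrays. Leaving out replicate 2 lowered the means of Gja1, Ctsl, Inhbb and Scd2 by over 1.5 times, and the other 9 genes that leaving out an array moved so far were above the control level on 0 arrays. The granulosa and cumulus sum went from 1762 to 1409 without replicate 2, an alternative chosen after seeing the data. No paired analysis was possible because only 1 group was described. Signals near the control level have no reliable order, and probe affinity limits any comparison between genes.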

Other observations

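Arid5b, a DNA-binding protein with an ARID domain, was named after its values were seen, because it split the arrays differently from Bicc1. It read 698, 1331, 712, 709.7 and 1332, so replicates 2 and 5 were alike and 1.87 times the highest of the other 3 arrays. Its next probe sets read 617, 957, 532, 583 and 1067, and 107, 161, 115, 99.7 and 189, with the same pair on top. A probe set of mean 37.4 did not show the split.

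Bright genes adjoined each other on the chromosomes in several places. In the RefSeq order of protein-coding genes, 8 of 99 placed genes among the 100 brightest lay next to another of the 100, or 8.08%, where 0.996% of the other ranked genes lay next to one of them. For the 500 brightest the shares were 11.5% of 495 and 4.87%. The pairs were Oosp1 with Oosp3 (7529.7 and 7108), Fbxw16 with Fbxw19 (6045 and 6042), Oas1e with Oas1c (6789.7 and 5441) and Zp3 with Dtx2 (7825 and 6065). All but the last are members of 1 gene family, whose probe sets can share sequence. The next probe set had a mean of 1471 for Dtx2 and 95.5 for Fbxw16, and the other genes of these pairs had 1 probe set each. These shares describe the ranking and were not tested.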
